A study of Homo sapiens with 4 samples.

Results

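Base excision, nucleotide excision and mismatch repair are the pathways that replace damaged or mispaired bases on a single strand of DNA, and 41 of their genes, of 20163 protein-coding genes in the annotation, were followed around their transcription start sites (TSSs) in neuroblastoma cells before and after knockdown of MYCN. The genes were taken by name. They comprised 19 genes of base excision repair, 16 of nucleotide excision repair and 6 of mismatch repair. The cells were BE(2)C, an established human neuroblastoma line with amplified MYCN, the gene of the transcription factor N-myc. All cells were transfected with siRNA, at 80 nM by the labels although the study's methods give another concentration, either a non-targeting control siRNA or an siRNA against MYCN, and the next day was the time of harvest. Every library carried the same wild-type label for genotype, and the study calls the replicates biological replicates, although the labels do not tie them to separate cultures. There were 2 control and 2 MYCN knockdown libraries. The assay was MNase-seq, in which micrococcal nuclease trims the linker DNA of fixed chromatin and protected fragments are sequenced. Each library is a list of called nucleosomes of 147 bp with their read counts and their fuzziness, the spread in bp of the read midpoints around the centre (dyad).

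In base excision repair a glycosylase removes a damaged base, an endonuclease opens the strand, and a polymerase and a ligase fill and seal the gap. Nucleotide excision repair finds bulky lesions, either anywhere in the genome or where RNA polymerase stalls, opens the helix with TFIIH and cuts out an oligonucleotide. Mismatch repair recognises replication errors with MutS proteins, recruits MutL proteins and removes the new strand with an exonuclease. Active promoters commonly hold a nucleosome-free region (NFR) just upstream of the TSS, followed by a well-placed +1 nucleosome.

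The lists held 10527010 and 12120711 nucleosomes in control replicates 1 and 2, and 10677252 and 12178724 upon knockdown. Their summed reads were 147726171, 242544884, 147370973 and 239257113 in the same order, so replicate 2 was deeper in both groups. A nucleosome entered a list only with at least 6 reads, and its absence means fewer than 6 reads there rather than bare DNA. Reads in the MYCN promoter were 89.5 to 118 times the median promoter of their library. The highest count of a nucleosome was the same in every list, at 35 to 70 nucleosomes, and those in the MYCN promoter reached 1605 to 1748, so these folds lie near a ceiling of the counts and cannot be compared between libraries. These reads follow the copies of DNA and an siRNA acts on mRNA, so they check the cell line and not the knockdown.

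The canonical E-box CACGTG, the hexamer bound by MYC proteins, was present in the window spanning -200 to 50 bp around the TSS in 9 of the 41 genes (22.0%), compared with 7.84% of all promoters. These genes were the glycosylase genes TDG, NTHL1 and MPG, the incision and ligation genes APEX1, FEN1 and LIG3, the transcription-coupled repair genes ERCC6 and UVSSA, and the TFIIH gene GTF2H1. The 12 E-boxes are shown because they allow the position of the hexamer to be set against the nucleosomes. Capitals mark the E-box, each sequence runs in the direction of its gene, coordinates are hg19, and positions are in bp from the TSS.
TDG (chr12:104359558-104359587, + strand, E-box from -80 to -75): gctgtcctacatCACGTGacggccagtacg
NTHL1 (chr16:2097860-2097889, - strand, E-box from -42 to -37): cgatccttgcatCACGTGacggggccgcat
MPG (chr16:128111-128140, + strand, E-box from -101 to -96): aggatccacctcCACGTGgcccgccccgcc
APEX1 (chr14:20923268-20923297, + strand, E-box from -105 to -100): aagcgtctccgtCACGTGgtgtcagacaga
APEX1 (chr14:20923329-20923358, + strand, E-box from -44 to -39): cgcgcctctgatCACGTGaccaggtccgct
APEX1 (chr14:20923350-20923379, + strand, E-box from -23 to -18): aggtccgctaccCACGTGggggctcagcgt
FEN1 (chr11:61560341-61560370, + strand, E-box from -30 to -25): tggcgagcaggtCACGTGacgggagcgcgg
LIG3 (chr17:33307447-33307476, + strand, E-box from -72 to -67): gcaactacgaccCACGTGgcagacgggggc
ERCC6 (chr10:50747199-50747228, - strand, E-box from -49 to -44): gtccctccaaacCACGTGgtcttgcccgtg
UVSSA (chr4:1340793-1340822, + strand, E-box from -191 to -186): tcgagctcagggCACGTGctagggggcggg
GTF2H1 (chr11:18344058-18344087, + strand, E-box from -44 to -39): gcgctcttgagtCACGTGcccagggcccgc
GTF2H1 (chr11:18344091-18344120, + strand, E-box from -11 to -6): gctacttccggtCACGTGccctcagactcc
Of these 12 E-boxes, 11 (91.7%) were not touched by a called nucleosome in any of the 4 libraries, whereas the E-box of MPG was covered in all 4. For all 1771 E-boxes in the windows of promoters with reads, 42.3% were uncovered and 15.2% were covered in all 4 libraries. The match is one of letters, and binding of N-myc was not measured in these libraries. The study took published N-myc binding sites from the same cell line and reports binding at the promoter of FEN1.

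The 200 bases upstream of the TSS are shown for 4 genes on which the results below turn. FEN1, the flap endonuclease, kept a nucleosome in the window in every library. EXO1, the exonuclease of mismatch repair, had a nucleosome in every library that crossed the limit of the window rule below between the groups. NEIL3, a glycosylase for oxidized bases, and RAD23B, the partner of the damage sensor XPC, had more promoter reads upon knockdown at an unadjusted p. Capitals mark the E-box, the CCAAT box, the GC box (GGGCGG) and an ETS motif (CCGGAAG) on either strand, and where motifs overlap the capitals run together. No exon of a protein-coding canonical transcript overlapped these stretches.
FEN1 (chr11:61560183-61560382, + strand): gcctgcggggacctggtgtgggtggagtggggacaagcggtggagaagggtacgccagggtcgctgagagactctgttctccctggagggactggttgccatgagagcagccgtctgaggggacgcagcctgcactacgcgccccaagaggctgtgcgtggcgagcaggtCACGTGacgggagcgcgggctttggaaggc
EXO1 (chr1:242011306-242011505, + strand): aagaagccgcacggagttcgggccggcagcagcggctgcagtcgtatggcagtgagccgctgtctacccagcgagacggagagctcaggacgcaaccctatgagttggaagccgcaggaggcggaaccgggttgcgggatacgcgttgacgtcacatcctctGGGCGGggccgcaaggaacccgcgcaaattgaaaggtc
RAD23B (chr9:110045360-110045559, + strand): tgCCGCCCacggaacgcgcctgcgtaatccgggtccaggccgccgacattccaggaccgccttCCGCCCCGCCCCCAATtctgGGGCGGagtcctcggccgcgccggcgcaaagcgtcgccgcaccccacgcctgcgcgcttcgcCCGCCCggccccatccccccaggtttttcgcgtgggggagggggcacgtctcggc
NEIL3 (chr4:178230828-178231027, + strand): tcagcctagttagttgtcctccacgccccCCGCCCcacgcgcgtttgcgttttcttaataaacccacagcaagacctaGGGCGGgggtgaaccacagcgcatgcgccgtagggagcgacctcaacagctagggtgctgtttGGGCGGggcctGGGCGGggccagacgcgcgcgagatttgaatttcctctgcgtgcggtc
Within the whole window, GGGCGG was found in 65.9% of the 41 genes and in 58.6% of all promoters, CCAAT in 39.0% and 32.1%, and CCGGAAG in 24.4% and 13.1%. TATAAA was in 0 of the 41 windows and in 8.27% of all promoters. A matching TSS of another protein-coding gene, on the opposite strand and within 1 kb upstream, was found for 14 of the 41 genes (34.1%) and for 9.38% of all promoters. The closest such pairs were PMS1 with ORMDL1 at 111 bp, DDB1 with TKFC at 123 bp and ERCC8 with NDUFAF2 at 135 bp. In these closest pairs the distance is shorter than a nucleosome of 147 bp, and each window reaches past the TSS of the partner. A nucleosome there can thus lie in both promoters.

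The first question was whether these promoters kept their NFR when MYCN was knocked down. A window was called empty when no called nucleosome lay at least 80% (118 bp) inside it. The windows of 27 of the 41 genes (65.9%) were empty in all 4 libraries, compared with 32.3% of the 20079 promoters with reads in every library. With a limit of 50% the count was 17 (41.5%), compared with 19.1% of all promoters. Per library, 34, 33, 36 and 35 of the 41 windows were empty, and the shares of 82.9%, 80.5%, 87.8% and 85.4% lay above those of all promoters (58.4%, 52.6%, 60.3% and 52.1%). Thus by the 80% rule both groups had mostly empty windows, with no more occupied windows upon knockdown than in control.

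Among base excision genes, 12 of 19 windows were empty in all 4 libraries. They were those of the glycosylase genes SMUG1, TDG, OGG1, MUTYH, NTHL1, NEIL2 and NEIL3, of APEX1, the endonuclease at sites without a base, of the ligase genes LIG1 and LIG3, of the scaffold gene XRCC1 and of PARP2, a sensor of strand breaks. Among nucleotide excision genes, 11 of 16 were empty in all 4. They were those of the damage recognition genes XPA, XPC and RAD23B, of the TFIIH genes ERCC2, ERCC3, GTF2H1 and GTF2H4, of the nuclease gene ERCC4, and of ERCC6, ERCC8 and UVSSA, which serve transcription-coupled repair. Among mismatch genes, 4 of 6 were empty in all 4, namely the MutS genes MSH3 and MSH6 and the MutL genes PMS1 and PMS2. Empty by this rule does not mean free of nucleosomes. GTF2H1 had one short of the limit in every library (68.7%, 63.3%, 71.4% and 73.5% inside). Some other genes had one in part of the libraries, such as LIG1 (76.9% inside) and MSH3 (79.6%) in control replicate 1. By the same rule FEN1 alone among the 41 was occupied in all 4 libraries (2.44%, compared with 19.9% of all promoters). A mixed state was found for 13 genes (31.7% compared with 47.8%). That FEN1 stood alone depended on the limit. With a limit of 50%, the windows of MPG, POLB, PARP1, ERCC1, EXO1, GTF2H1 and NEIL1 were also occupied in all 4 libraries.

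**Figure D1:**
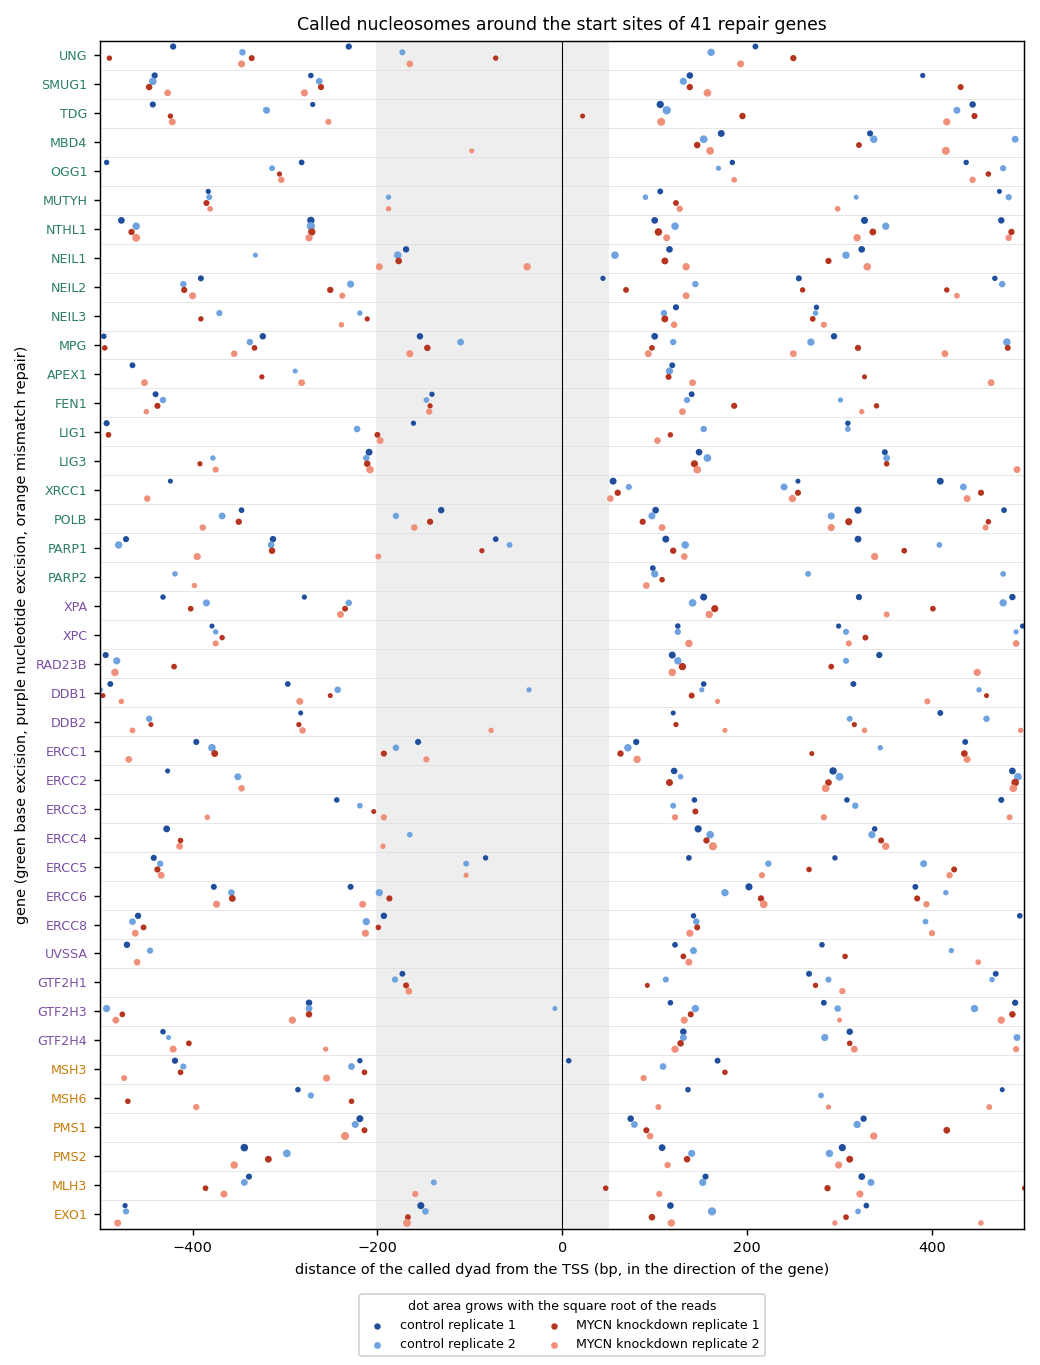
Distance of each called dyad from the TSS (horizontal axis, bp in the direction of the gene) for the 41 genes (rows) in 2 control (blue) and 2 MYCN knockdown (red) libraries, with dot area growing with the square root of the reads and the grey band marking the window from -200 to 50 bp. In 27 rows no nucleosome lay at least 80% inside the band in any library, and in the row of FEN1 a dyad stood near -144 in all 4.

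A window empty in both control libraries and occupied in both knockdown libraries was found for 0 of the 31 genes empty in both controls, while 444 of 8457 promoters (5.25%) passed this rule. The reverse was found for 1 of the 31 genes empty in both knockdown libraries (3.23%), while 483 of 8559 promoters (5.64%) passed it. That gene was EXO1. Its window held a nucleosome of 23 reads in control replicate 1 and of 18 reads in control replicate 2, and none upon knockdown. However, the nucleosome was present in every library. Its dyad lay at -153 and -148 bp in the controls, with 82.3% and 85.7% of it inside the window, and at -167 and -168 bp upon knockdown, with 72.8% and 72.1% inside. The knockdown nucleosomes had 11 and 35 reads. The positions of the groups did not overlap, and a shift of 14 to 20 bp carried the nucleosome across the 80% limit.

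FEN1 held 7 and 10 reads in its window in control and 7 and 15 after knockdown, with dyads at -141, -147, -143 and -144 bp. These positions spanned 6 bp over the 4 libraries. The E-box of FEN1, from -30 to -25 bp, lay between this nucleosome and the +1 nucleosome.

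Of the 6 base excision genes of mixed state, 3 were occupied in 1 library only. The window of UNG, which removes uracil, held 8 reads in knockdown replicate 1 only. That of MBD4, a glycosylase for mismatches at methylated CpG sites, held 6 reads in knockdown replicate 2 only, the smallest number a list can hold. That of NEIL1, a glycosylase for oxidized bases, held 27 reads in knockdown replicate 2 only, at -38 bp. By the window rule, those of UNG, MBD4 and NEIL1 were therefore each occupied in 1 knockdown library and empty in the other. However, NEIL1 had a nucleosome short of the limit in both controls (71.4% and 65.3% inside) and in knockdown replicate 1 (66.0%). UNG had one short of the limit in control replicate 2 (68.7% inside) and in knockdown replicate 2 (74.1%). The window of MPG, which removes alkylated purines, held 16 and 20 control reads and 16 and 0 reads after knockdown. In MPG the dyad of knockdown replicate 2 lay at -165 bp with 74.1% inside the window, compared with -154, -110 and -146 bp in the other libraries. The window of PARP1, the main sensor of strand breaks, held 10 and 11 control reads and 7 and 0 reads after knockdown. Its dyads lay at -72, -57 and -87 bp, and in knockdown replicate 2 the nearest was at -199 bp. The window of POLB, the gap-filling polymerase, held 16 and 0 control reads and 14 and 0 reads after knockdown, so its state followed the replicate number and not the group. Its dyads lay at -131, -180, -143 and -160 bp.

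Among nucleotide excision genes, the window of ERCC5, the nuclease of the incision behind the lesion, held 8 and 11 control reads and 0 and 7 reads after knockdown. That of ERCC1, which forms a nuclease with ERCC4, held 13 and 0 in the controls and 0 and 14 upon knockdown. In ERCC1 a nucleosome lay between -193 and -147 bp in all 4 libraries and met the 80% limit in 1 of each group. The windows of DDB1 and GTF2H3 held 7 and 6 reads in control replicate 2 only, and that of DDB2 held 8 in knockdown replicate 2 only. DDB1 and DDB2 form the sensor of ultraviolet lesions, and GTF2H3 is a TFIIH subunit. In mismatch repair, the window of the MutL gene MLH3 held 12 reads in control replicate 2 only, with its dyad at -139 bp, compared with -159 bp and 78.2% inside in knockdown replicate 2. None of these states separated the groups.

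The average profile showed the same arrangement. Reads were scaled to a common promoter total with TMM factors, in units of CPM. In the bin from 100 to 150 bp downstream of the TSS, the repair genes had 2.90 and 2.17 CPM per promoter in the controls and 2.52 and 2.36 upon knockdown. All promoters had 1.76, 1.65, 1.70 and 1.65. In the bin just upstream of the TSS the values were 0 and 0.0589 in the controls and 0 and 0.125 upon knockdown, compared with 0.451 to 0.472 over all promoters. The knockdown values fell within the range of the controls downstream and beyond it by 1 library upstream, where a single nucleosome of NEIL1 gave all 27 reads.

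**Figure D2:**
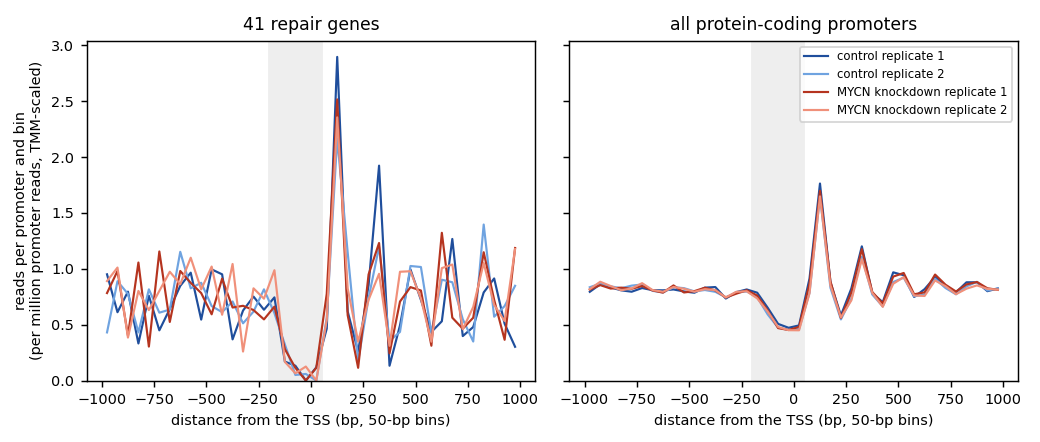
Reads of called nucleosomes per promoter in CPM scaled by TMM (vertical axis), in 50-bp bins of distance from the TSS (bp, horizontal axis), for the 41 repair genes (left) and all protein-coding promoters (right), 1 line for each of the 4 libraries. The bin centred at 125 bp held 2.17 to 2.90 in the repair genes and 1.65 to 1.76 in all promoters, and the grey band marks the window from -200 to 50 bp.

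The gap between the called nucleosomes on either side of the position 75 bp upstream of the TSS was wide in these genes. Its median was 285 and 222 bp in the controls and 253 and 213 bp upon knockdown, compared with 169, 142, 180 and 142 bp over all promoters. The deeper replicate 2 had the shorter gap in both groups. Gaps of RAD23B were 466, 460, 403 and 456 bp, and those of UVSSA, a factor of transcription-coupled repair, were 446, 441, 597 and 450 bp. Those of PARP2 were 933, 372, 962 and 342 bp, and thus differed more between replicate numbers than between groups. Narrow gaps were found in MPG at 107, 83, 96 and 111 bp, in ERCC1 at 89, 104, 109 and 81 bp, in POLB at 85, 130, 83 and 121 bp, and in NEIL1 at 138, 88, 141 and 13 bp.

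A +1 nucleosome, the first with its dyad 1 to 300 bp downstream of the TSS, was called in all 4 libraries for 35 of the 41 genes (85.4%), compared with 87.2% of all promoters. DDB2, GTF2H1, LIG1, MSH6, OGG1 and XPC each lacked it in 1 library. The median distance was 121.5 and 132 bp in the controls and 123 and 131 bp upon knockdown, close to the 122 to 123 bp of all promoters. The range over the 4 libraries had a median of 26 bp in the repair genes, with 26 bp in base excision, 24 bp in nucleotide excision and 65 bp in mismatch genes, compared with 56 bp over all promoters. Ranges over 60 bp were found in 9 of the 35 genes (25.7%) and in 47.6% of all promoters.

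The steadiest of all was ERCC8, whose product marks stalled polymerase, with its +1 dyad at 142, 145, 146 and 138 bp. In base excision repair the steadiest was NEIL3, at 123, 110, 111 and 121 bp, and the most variable was NEIL2, another glycosylase for oxidized bases, at 44, 144, 69 and 134 bp. In NEIL2 both replicates 1 lay nearer than both replicates 2. In nucleotide excision repair the most variable was the helicase gene ERCC2, at 121, 128, 116 and 285 bp. Libraries other than knockdown replicate 2 had a further dyad at 293, 300 and 288 bp. The dyad at 285 bp in knockdown replicate 2 thus stood where the next nucleosome lay elsewhere. No dyad was called between it and the TSS, so the range does not measure a move of the same nucleosome. In mismatch repair PMS1 was steadiest, at 74 and 78 bp in the controls and 91 and 95 bp upon knockdown, and MSH3 varied most, at 7, 109, 176 and 88 bp. In control replicate 1 the MSH3 dyad at 7 bp had 9 reads, and a further dyad lay at 168 bp. The groups of PMS1 did not overlap and those of MSH3 did.

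The +1 dyad was not significantly moved in any repair gene. By limma with Benjamini-Hochberg adjustment, 0 of 35 genes and 0 of 17501 promoters (0%) passed an adjusted p of 0.05, and the adjusted p of the 35 ran from 0.947 to 1. At an unadjusted p under 0.05 there were 913 promoters (5.22%) and 1 repair gene (2.86%). That gene was MLH3, a MutL protein, with dyads at 155 and 152 bp in the controls and at 47 and 105 bp upon knockdown, a change of -77.5 bp (SE 25.1). The groups did not overlap in 4 genes whose dyad was farther upon knockdown (11.4%), MUTYH, ERCC6, PMS1 and XPA, and in 16.4% of all promoters. They did not overlap in 4 genes whose dyad was nearer (11.4%), MLH3, MPG, LIG3 and GTF2H4, and in 15% of all promoters. These shares did not exceed the background.

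Promoter reads, the summed reads of nucleosomes whose dyads lay between 2 kb before and 1 kb after the TSS, asked whether nucleosome occupancy changed. All 41 genes passed the minimum mean of 10 reads. None was called. By edgeR's quasi-likelihood test with Benjamini-Hochberg adjustment, 0 of 41 repair genes and 0 of 20106 promoters (0%) passed an adjusted p of 0.05, and the adjusted p of every repair gene was 0.999. DESeq2 also called 0. At an unadjusted p under 0.05, edgeR gave 634 promoters and DESeq2 gave 210. On the higher side these were 319 promoters (1.59%) and 4 of the 41 repair genes (9.76%), namely FEN1, NEIL3, TDG and RAD23B. On the lower side they were 315 promoters (1.57%) and 0 repair genes. The count of 4 depended on the libraries: over both directions it was 0 without control replicate 1, 5 without control replicate 2 and 2 without either knockdown library, while all promoters gave 514, 1079, and 688 and 778 of about the same number tested (2.56% to 5.37%). It was 1 with DESeq2 (1.04% of all promoters), 2 with whole list totals as library sizes (3.36%) and 1 with 1 kb on each side of the TSS (3.47%).

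FEN1 had counts of 53 and 103 in control and 76 and 167 after knockdown. In CPM these were 16.0 and 19.2 against 23.7 and 31.7, and the groups did not overlap. The log2 change was 0.66 (SE 0.30), the largest of the 41, with an unadjusted p of 0.0303 by edgeR. Leaving out 1 library at a time gave 0.42 without knockdown replicate 2 and 0.84 without knockdown replicate 1. FEN1 had the fewest reads of all members in control replicate 2, so few reads stood behind this change. They came from 5 and 11 called nucleosomes in control and 9 and 12 after knockdown. Nucleosomes under the minimum of 6 reads add nothing to the sum, and the part of this minimum in the change was not tested.

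NEIL3 had counts of 81 and 171 in control and 148 and 177 after knockdown, or 24.5 and 31.8 against 46.1 and 33.6 CPM. Knockdown replicate 1 stood apart, and replicate 2 differed little from its control. The called nucleosomes of NEIL3 numbered 8 and 14 in control and 13 and 13 after knockdown. The log2 change of NEIL3 was 0.46 (SE 0.19), with an unadjusted p of 0.0208 by edgeR. It was 0.24 without knockdown replicate 1 and 0.69 without knockdown replicate 2. MUTYH, which removes adenine opposite oxidized guanine, had counts of 57 and 134 in control and 88 and 161 after knockdown, or 17.2 and 24.9 against 27.4 and 30.6 CPM. Its log2 change was 0.44 (SE 0.26), with an unadjusted p of 0.0983 by edgeR. The change of MUTYH was 0.23 without control replicate 1 and 0.76 without control replicate 2. Its called nucleosomes numbered 6 and 13 in control and 9 and 14 after knockdown. TDG, which removes thymine from mismatches with guanine and was singled out after its values were seen, had counts of 131 and 232 in control and 169 and 264 after knockdown. In CPM these were 39.6 and 43.1 against 52.7 and 50.2, a log2 change of 0.30 (SE 0.15) with an unadjusted p of 0.048 by edgeR. In all 4 genes both knockdown libraries lay above both controls.

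In nucleotide excision repair the largest change was in XPC, the sensor of distorted helices, with counts of 64 and 131 in control and 80 and 173 after knockdown. In CPM these were 19.3 and 24.4 against 24.9 and 32.9, a log2 change of 0.40 (SE 0.26) with an unadjusted p of 0.125 by edgeR. The change of XPC was 0.18 without knockdown replicate 2 and 0.59 without control replicate 2. RAD23B, its partner, had counts of 135 and 247 in control and 161 and 298 after knockdown, or 40.8 and 45.9 against 50.2 and 56.6 CPM. The log2 change of RAD23B was 0.30 (SE 0.15), with an unadjusted p of 0.0471 by edgeR, and it was 0.20 without knockdown replicate 2. ERCC5 had counts of 92 and 158 in control and 119 and 173 after knockdown, or 27.8 and 29.4 against 37.1 and 32.9 CPM, a log2 change of 0.28 (SE 0.20). All 3 had higher reads in both knockdown libraries than in both controls, in XPC by a narrow margin in knockdown replicate 1. With 1 kb on each side of the TSS, the log2 change was larger than in the wider window in RAD23B (0.57) and ERCC5 (0.305). It was smaller in FEN1 (0.542), NEIL3 (0.387), MUTYH (0.416) and XPC (0.295).

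In mismatch repair the changes were smaller and mostly negative. MSH6, which pairs with another MutS protein to recognise mispaired bases, had counts of 75 and 148 in control and 64 and 113 after knockdown. In CPM these were 22.7 and 27.5 against 19.9 and 21.5, a log2 change of -0.28 (SE 0.29) with an unadjusted p of 0.338 by edgeR. The change of MSH6 was -0.13 without control replicate 2 and -0.40 without control replicate 1. MLH3 had counts of 165 and 333 in control and 147 and 296 after knockdown, a log2 change of -0.13 (SE 0.15). Its groups overlapped, and the change of MLH3 was 0.05 without control replicate 2 and -0.30 without knockdown replicate 2. PMS1, a MutL gene, had counts of 162 and 265 in control and 156 and 250 after knockdown, a log2 change of -0.03 (SE 0.15). Its values of 48.9 and 49.3 CPM in the controls and 48.6 and 47.5 upon knockdown were nearly equal.

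**Figure D3:**
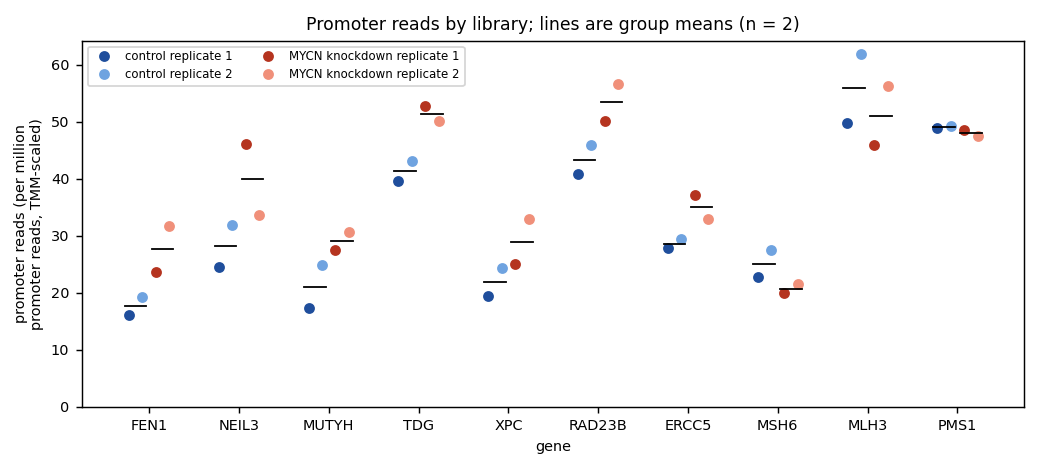
Promoter reads in CPM scaled by TMM (vertical axis), in each of the 4 libraries for 10 repair genes (horizontal axis), with lines at the means of 2 libraries. FEN1 stood at 16.0 and 19.2 in the controls and 23.7 and 31.7 upon MYCN knockdown, whereas PMS1 lay between 47.5 and 49.3 in all 4.

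Counted without a test, both knockdown libraries lay above both controls in 11 of the 41 genes (26.8%), compared with 15% of all promoters. These were MUTYH, FEN1, TDG, MPG, NEIL3 and POLB in base excision repair and ERCC5, ERCC4, XPC, UVSSA and RAD23B in nucleotide excision repair. Both lay below both controls in 4 genes (9.76%), MSH6, PMS1, OGG1 and XPA, compared with 15.4% of all promoters. By pathway, 6 of 19 base excision, 5 of 16 nucleotide excision and 0 of 6 mismatch genes were higher in this sense, and 1, 1 and 2 were lower. The median log2 change was 0.05 over the 41 genes, 0.05 in base excision, 0.10 in nucleotide excision and -0.03 in mismatch genes, and 0.00 over all promoters. The change was positive in 27 of the 41 genes (65.9%) and in 50% of all promoters. Whether the pathways differ from each other was not tested.

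**Figure D4:**
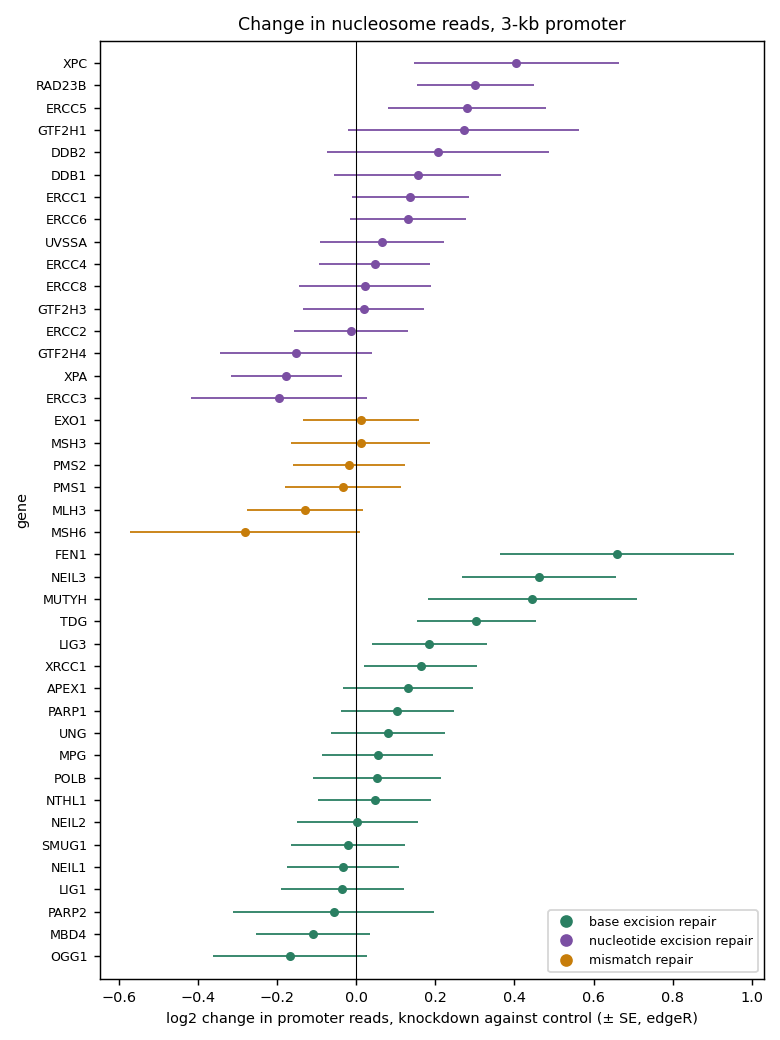
Log2 change in promoter reads, MYCN knockdown against control (horizontal axis, points with bars of 1 SE from edgeR), for the 41 genes (vertical axis) coloured by pathway and ordered within it. Values ran from -0.28 in MSH6 to 0.66 in FEN1, and no gene passed an adjusted p of 0.05.

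Across the 9 genes with an E-box, all 9 log2 changes were positive with a median of 0.13, and across the 32 without it 18 were positive with a median of 0.01. For all promoters with an E-box, 51.4% of 1575 changes were positive with a median of 0.00. This split of the repair genes was chosen after values were seen and is a description. Windows were empty in all 4 libraries in 7 of the 9 genes (77.8%) and in 20 of the 32 (62.5%), compared with 40.5% of all promoters with an E-box.

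The density of reads differed along the genome and between the members. Divided by the median of 3-kb windows within 500 kb, promoter reads of the repair genes had a median of 0.748 and 0.821 in the controls and 0.834 and 0.862 upon knockdown, compared with 0.950, 0.927, 0.940 and 0.935 over all promoters. By the mean over the 4 libraries, the ratio of PARP2 was the lowest, at 0.313, 0.621, 0.352 and 0.543, and that of MPG the highest, at 1.26, 1.19, 1.27 and 1.33. For FEN1 it was 0.434 and 0.515 in the controls and 0.679 and 0.879 upon knockdown. The divisor for FEN1 was 122, 200, 112 and 190 reads in the same order. It differed little between the groups, so the FEN1 ratio largely repeats its promoter reads. Whether the surroundings play a part was not tested. The ratio of NEIL3 was 0.669, 0.838, 1.21 and 0.859, with knockdown replicate 1 apart here as well.

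Fuzziness, averaged over the nucleosomes of each promoter, asked whether nucleosomes were less or more exactly placed. Its median over all promoters was 33.62 and 35.55 bp in the controls and 33.61 and 35.48 bp upon knockdown. In the repair genes it was 32.87 and 35.04 bp in the controls and 31.93 and 34.65 bp upon knockdown. The deeper replicate 2 thus had the higher median in both groups, so fuzziness does not measure placement alone. By limma with Benjamini-Hochberg adjustment, 0 of 41 repair genes and 0 of 20044 promoters (0%) passed an adjusted p of 0.05, and the adjusted p of every repair gene was 1. At an unadjusted p under 0.05 there were 298 promoters (1.49%) and 1 repair gene (2.44%), PARP1. Its fuzziness was 36.6 and 39.1 bp in the controls and 29.3 and 34.6 bp upon knockdown, a change of -5.91 bp (SE 2.24). Replicate 1 was the lower in both groups, and the groups did not overlap. The window nucleosome of PARP1 was also the one that was missing in knockdown replicate 2.

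FEN1 had the lowest mean fuzziness of the 41 genes (29.6 bp), with 31.7 and 31.9 bp in the controls and 24.6 and 30.2 bp upon knockdown. Its change was -4.43 bp (SE 2.24), and knockdown replicate 1 was the lowest. In base excision repair MPG had the highest mean fuzziness, with 35.2, 37.4, 35.6 and 35.6 bp, and its groups overlapped. In nucleotide excision repair the lowest was GTF2H1, a TFIIH subunit, with 27.0, 33.9, 31.0 and 31.3 bp, and the highest XPA, which verifies lesions, with 34.9, 37.0, 33.6 and 36.9 bp. In mismatch repair PMS2, the endonuclease of the MutL complex, was lowest, with 31.7, 32.7, 27.8 and 34.7 bp. EXO1 was the highest of all (36.0 bp), with 37.0 and 37.2 bp in the controls and 33.7 and 36.2 bp upon knockdown.

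The fuzziness of both knockdown libraries was below that of both controls in 8 of the 41 genes (19.5%), compared with 11.9% of all promoters. These were PARP1, FEN1, LIG3, NEIL2 and POLB of base excision repair, DDB1 and ERCC8 of nucleotide excision repair, and EXO1. It was above both controls in 4 genes (9.76%), MUTYH, TDG, NTHL1 and OGG1, compared with 10.9% of all promoters. In MUTYH it was 33.2 and 32.6 bp in the controls and 35.8 and 36.5 bp upon knockdown. The median change was -0.73 bp over the 41 genes and -0.04 bp over all promoters, and 27 of the 41 changes were negative (65.9%, compared with 50.9%).

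**Figure D5:**
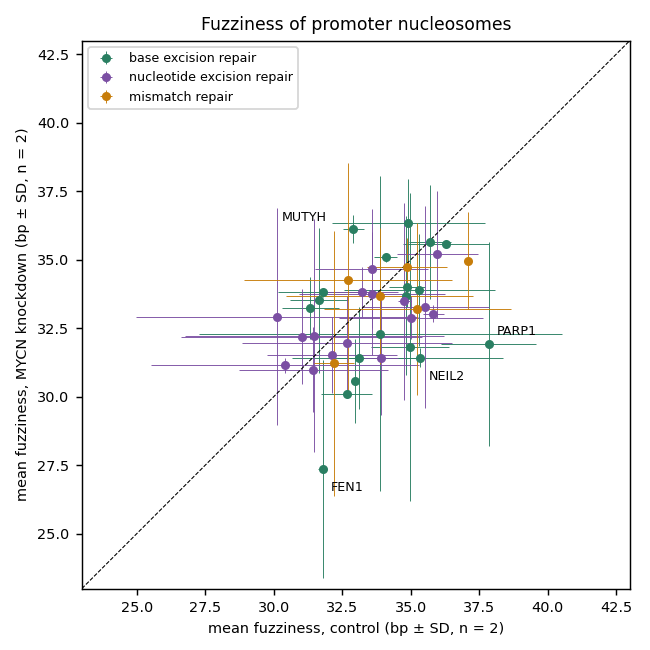
Mean fuzziness of promoter nucleosomes (bp) upon MYCN knockdown (vertical axis) against control (horizontal axis) for the 41 genes coloured by pathway, with bars of 1 SD over 2 libraries and a dashed line of equal values. PARP1, FEN1 and NEIL2 lay below the line and MUTYH above it, with FEN1 at 31.7 and 31.9 bp in the controls and 24.6 and 30.2 bp upon knockdown.

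The same pathways draw on 33 other genes, among them those of RPA, PCNA, the clamp loader RFC, the replicative polymerases, the TFIIH kinase and the enzymes that clean strand ends. None was called by edgeR, limma or the window rules. Their windows were empty in all 4 libraries in 26 of 33 genes (78.8%, compared with 32.3% of all promoters). They were occupied in all 4 in RPA3 and RFC1 (6.06%, compared with 19.9%). Promoter reads were lower upon knockdown at an unadjusted p under 0.05 by edgeR in 3 of them (9.09%), APLF, GTF2H5 and POLD4, and higher in 0. Over all promoters these shares were 1.57% and 1.59%. Both knockdown libraries lay below both controls in 7 of the 33 genes (21.2%, compared with 15.4% of all promoters). They lay above both in 4 (12.1%, compared with 15%). APLF, an end-processing factor, had the largest negative change, with counts of 95 and 153 in control and 58 and 103 after knockdown, a log2 change of -0.60 (SE 0.28). RPA2, a subunit of the single-strand binding protein, had the largest positive change, with 59 and 124 reads against 79 and 150, a log2 change of 0.37 (SE 0.28). The median log2 change of the 33 genes was -0.02, and 14 changes were positive (42.4%, compared with 50% of all promoters). GTF2H2 has near-identical copies in the genome, so its reads are uncertain.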

How the data were processed

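MNase-seq libraries of BE(2)C cells (2 control, 2 MYCN knockdown, grouped by title) were analysed. The authors trimmed reads with Trim Galore 0.4.4, mapped read pairs to hg19 with Bowtie2 2.2.4 (CASAVA 1.9 is also named in the submitters' processing notes), removed duplicates and called nucleosomes per library with Genetrack, for which a version is not given in the sources used here. The deposited counts are whole-number read midpoints per called nucleosome, at least 6 and at most 1764 in all 4 lists. By the study, occupancy is a read count that was normalized. The values were taken here as unscaled, because they are whole numbers whose totals differ. The deposited fuzziness is an SD in bp. A list total is not the library depth. A deeper library passes the minimum at more places, and digestion and amplification vary with base composition, and a GC term was an alternative.

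Here, canonical TSSs were taken from GENCODE (19881 of 20163 genes, otherwise the gene start). Counts were summed per promoter and tested with edgeR 4.0.16 (R 4.3.3; TMM, mean of at least 10 reads), and fuzziness (at least 3 nucleosomes in each library) and +1 position with limma 3.58.1. DESeq2 1.42.0 was an alternative. P-values were adjusted over all promoters, called under 0.05, two-sided, and measure the spread between these libraries only. In the profile of all promoters, reads per promoter and bin were clipped at their percentile 99.99. The scripts were tested on simulated data.

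The members and lists were chosen with earlier results of these data known. Values in every library are given for FEN1, the 3 largest changes in reads per pathway, windows of mixed state, and the extremes of +1 range and fuzziness per pathway. TDG, gaps, local ratios and the E-box split were added after values were seen. Alternatives were size factors, list totals, no filter, another window, a GC term, a replicate block, other overlap rules, equal depth and each library left out.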

Additional observations from a re-analysis of the deposited data

How the results depend on the processing

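For 14 results, 153 values were recomputed under alternatives, and 149 of them kept their direction and their side of the threshold or moved by less than the limit set for them. This tally does not measure stability. Many values were counts of repair genes called at an adjusted p, which stayed at 0. Kept log2 changes could also move widely, from 0.462 to 0.241 in NEIL3 without knockdown replicate 1 and from 0.404 to 0.177 in XPC without knockdown replicate 2. The number of repair genes called by promoter reads, fuzziness or +1 position was 0 under every alternative run for each. Over all promoters the reads gave 0 calls except without MYCN knockdown replicate 2, so leaving out 1 library gave 0 to 1. The number of repair windows empty in all 4 libraries was 27, and it was 17 when a nucleosome at least 50% inside counted as occupying, or any dyad inside, which is the same rule at this length (19.1% of all promoters). It was 31 (40.7% of all promoters) when counts were scaled to the smallest list total before the minimum of 6 reads, which asks for 9.87 and 9.74 reads in the deeper replicates, and 27 to 30 with 1 library left out. The log2 change of MLH3 ran from -0.302 to 0.0507 with 1 library left out and turned positive without control replicate 2. The causes of these differences were not tested.

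At an unadjusted p under 0.05, leaving out 1 library gave 1 to 4 repair genes by fuzziness and 0 to 2 by +1 position, compared with 1 each with all libraries (limma). Over all promoters these were 1.44% to 3.78% by fuzziness and 8.71% to 9.39% by +1 position, compared with 1.49% and 5.22%. The replicate number as a block gave 0 repair genes and 0 promoters called by reads (5 and 1175 at an unadjusted p under 0.05), and with a GC term also 0 (5 and 1064). The deviations of same-numbered libraries correlated at 0.294 for reads and 0.0815 for fuzziness, over promoters and only 2 pairs, so the libraries share a number and no more is known of a pairing. The block changed no call of a repair gene at an adjusted p of 0.05. At an unadjusted p it gave 3 repair genes by fuzziness (5.57% of all promoters) and 0 by +1 position (4.97%), so MLH3 was no longer among them, as also when the dyad with the most reads was taken. Absence of a nucleosome, and hence an empty window, is limited by the minimum of 6 reads, which the less deep replicates 1 meet at fewer places.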

Other observations

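The local read density around the repair genes differed by place. In control replicate 1, the median 3-kb window within 500 kb held 91 reads around MUTYH, 95 around GTF2H1, 103 around DDB2, 105 around OGG1 and 117 around XPC, and 245 around NTHL1. GC content of the 251-bp window was 65.34% in the median repair gene and 64.54% over all promoters, and ranged from 53.78% in SMUG1 to 77.69% in MSH6.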
